A study of Mus musculus with 12 samples.

Results

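The genes described here are the 7 cyclin-dependent kinase inhibitors of the mouse, Cdkn1a, Cdkn1b and Cdkn1c of the Cip/Kip family and Cdkn2a, Cdkn2b, Cdkn2c and Cdkn2d of the INK4 family. They were chosen by gene symbol and are 7 of the 45792 genes quantified by RNA-seq in neural stem cells (NSCs) with and without Ncf1. All 7 had enough counts to be tested, with expected counts per library from 184 (Cdkn2b) to 5773 (Cdkn1a).

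Ncf1 encodes the p47phox subunit of the NADPH oxidase Nox2, and Igfbp2 is a secreted protein that binds insulin-like growth factors. The NSCs were primary cultures from the forebrain of pups 1 to 2 days old on a C57BL/6J background, with germline loss of Ncf1 in the Ncf1-/- cultures, and all were kept in serum-free medium with EGF, FGF and B-27 supplement. The 12 libraries form 3 groups of 4. WT cultures (replicates 9 to 12) and Ncf1-/- cultures (replicates 1 to 4) carry the label of no treatment, and the methods name vehicle for the latter, while the treated Ncf1-/- cultures (replicates 5 to 8) received mouse recombinant Igfbp2 48 hours after plating and were harvested 48 hours later. For WT and untreated Ncf1-/- cultures the labels give 48 hours after plating and no later time. A figure legend of the study instead has RNA of all 3 groups collected after the further 48 hours. If the labels hold, culture time and treatment cannot be told apart. The labels give the dose as 100 ng/ml and the methods of the study give a lower one. No WT culture received Igfbp2, so an effect of Igfbp2 in the presence of Ncf1 was not measured. Both comparisons of Ncf1-/- cells below use the same 4 untreated Ncf1-/- libraries.

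Cyclin-dependent kinases drive a cell from G1 into S phase once they are bound by cyclins. INK4 proteins bind Cdk4 and Cdk6 and keep D-type cyclins from activating them, whereas Cip/Kip proteins bind many cyclin-kinase complexes, block Cdk2 and can help to assemble cyclin D with Cdk4 or Cdk6. In neural stem cells p21 (Cdkn1a) and p57 (Cdkn1c) are known for holding cells in quiescence, p27 (Cdkn1b) for limiting the divisions of progenitors, and p16Ink4a and p19Arf (Cdkn2a) for being held down by the Polycomb protein Bmi1.

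Libraries held 18201622 to 34086554 expected counts. Ncf1 itself had between 1 and 7 counts in every library, too few to check the genotype. The 8 neural stem cell markers, among them Nes, Sox2 and Fabp7, summed to 2394 to 7874 CPM (counts scaled to a common library total) in WT, 7600 to 8225 CPM in untreated and 7473 to 8015 CPM in treated Ncf1-/- libraries. The sum hides mixed directions, as 5 of the 8 were lower and 2 higher in Ncf1-/- than in WT cells (median log2 fold change -0.36). WT libraries also carried oligodendrocyte markers at a sum of 3149 to 11201 CPM, against 2130 to 2299 CPM in untreated and 2124 to 2210 CPM in treated Ncf1-/- libraries, and 8 of the 10 oligodendrocyte markers were lower and 2 higher in Ncf1-/- cells. Of the neuronal markers 6 of 8, and of the astrocyte markers 6 of 7, were lower in Ncf1-/- than in WT cells. Fibroblast and mural markers summed to 9.86 to 24.2 CPM in WT, 10.8 to 14.0 CPM in untreated and 23.4 to 26.8 CPM in treated Ncf1-/- libraries; of the 5 tested, 4 were higher and 1 lower in Ncf1-/- than in WT cells and 3 higher after Igfbp2. Microglial markers summed to 0.842 to 2.12 CPM over all libraries, with C1qa and C1qb at 0. In these bulk samples fewer cells of a type and less RNA per cell cannot be told apart. The summed level of 4 Y-linked genes was 105 to 116 CPM in untreated Ncf1-/- libraries and 7.79 to 9.18 CPM in treated ones, so that treatment and the sex of the cultures cannot be told apart. WT replicate 12 also stood at 6.46 CPM where the other WT libraries reached 107 or more, and a sample sheet in the supplement of the study lists its library number under another treatment. WT replicate 11 stood apart in another way, with the lowest oligodendrocyte and the highest neural stem cell marker sum of the WT libraries. Some results below, but not all, are also given without replicate 12 or without replicate 11.

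Loss of Ncf1 went with more Cdkn1a, Cdkn2a, Cdkn2c and Cdkn2d and with less Cdkn1c transcript. Of the 7 inhibitors 4 rose and 1 fell between WT and Ncf1-/- cells at an adjusted p under 0.05 in edgeR's quasi-likelihood test, and the libraries of the groups did not overlap for these 5. Of all 15706 genes tested, 57.2% were called in this comparison (28.9% higher, 28.2% lower) and 51.2% did not overlap, so that most genes of any kind were called here. After Igfbp2, Cdkn1a and Cdkn2b rose and none of the other 5 was called, where 25.0% of all genes were called (14.2% higher and 10.7% lower) and 34.1% did not overlap. Over the 7 inhibitors the log2 fold change had a median of 0.48 for Ncf1-/- against WT and 0.19 for treated against untreated cells, beside 0.02 and 0.04 over all genes tested. These counts stayed at 5 and 2 without WT replicate 12 and were 6 and 2 without WT replicate 11, where Cdkn1b was also called. The direction of calls after Igfbp2 depended on scaling: 2238 genes were higher and 1685 lower as reported, 648 and 5258 with library totals, 200 and 6154 on log2(TPM + 1), and 960 and 2245 on TPM rescaled without the 100 most abundant genes. The scaling factors from trimmed mean of M-values were 1.08 to 1.14 in untreated and 0.89 to 0.98 in treated Ncf1-/- libraries. These factors thus shift every difference after Igfbp2 the same way.

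**Figure D1:**
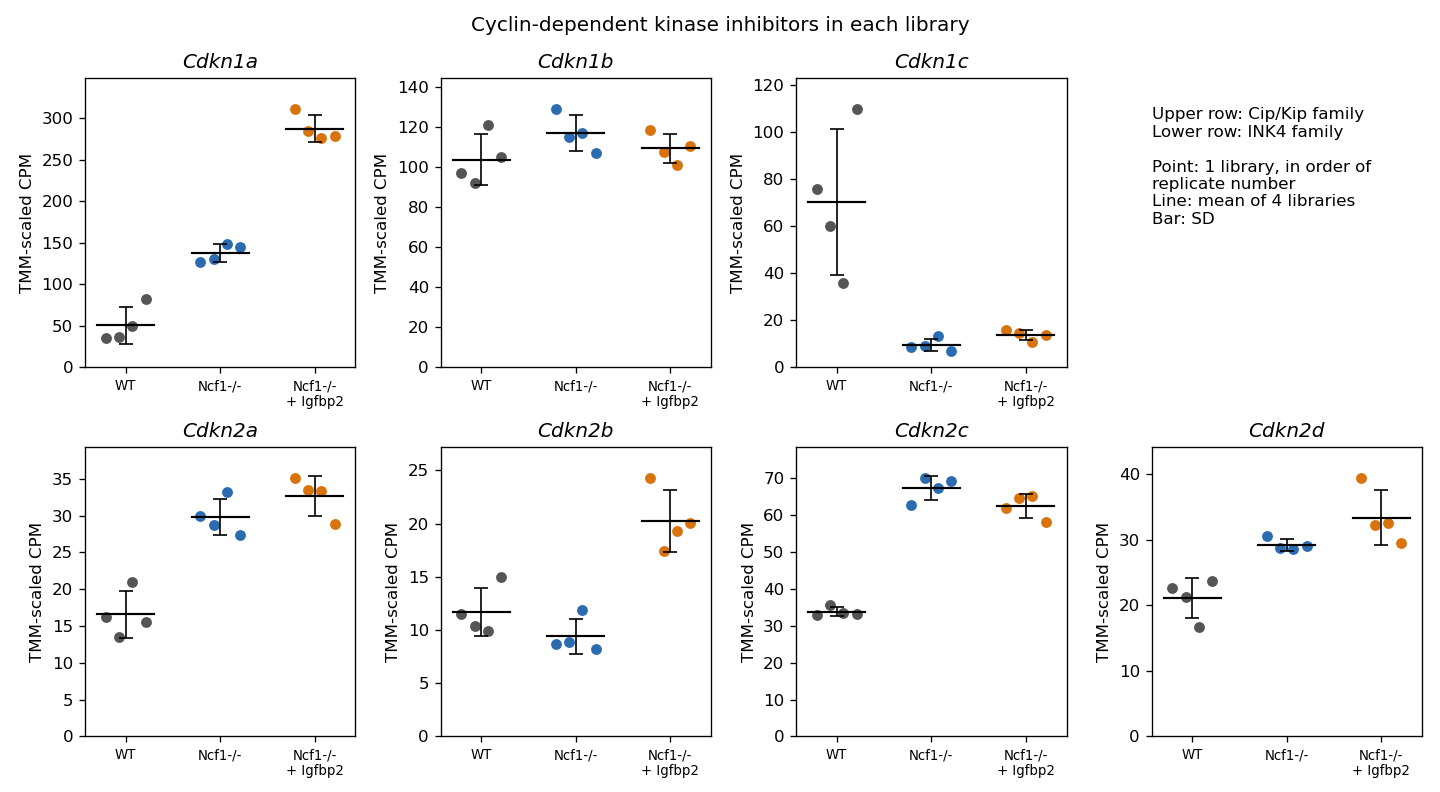
TMM-scaled CPM (vertical axis, from 0) of the 7 inhibitors in each of the 12 libraries, by group; points are libraries, lines means and bars SD (n = 4). Cdkn1a stepped up from WT (35.02 to 82.6) through Ncf1-/- (128 to 149) to Igfbp2-treated cells (276 to 311), Cdkn1c was high in WT alone, and Cdkn2b was high in the treated libraries.

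Cdkn1a (ENSMUSG00000023067, chr17:29090976-29100727, plus strand, GRCm38) encodes p21, the inhibitor that p53 induces. Its level in CPM scaled by trimmed mean of M-values (TMM) was 35.02, 36.2, 49.99 and 82.6 in WT replicates 9 to 12, 128, 130.3, 149 and 145 in Ncf1-/- replicates 1 to 4, and 311, 285, 276 and 279 in treated replicates 5 to 8. Every library of a group lay above every library of the group before it, and WT replicate 12 was the highest of the WT libraries. The log2 fold change was 1.44 (SE 0.22, adjusted p = 9.11e-05, edgeR's quasi-likelihood test) for Ncf1-/- against WT, and 1.74 without WT replicate 12. Treated exceeded untreated Ncf1-/- cells by 1.06 (SE 0.21, adjusted p = 0.00477, edgeR), a difference in which treatment and the sex of the cultures cannot be told apart. Treated cells exceeded WT by 2.499 (SE 0.22, adjusted p = 1.27e-06, edgeR). Per length the same rise read 24.7 ± 11.5, 67.3 ± 9.54 and 100.5 ± 16.0 TPM (transcript abundance per length as a share of the library; mean ± SD, n = 4). On the log2(TPM + 1) scale the treated cells exceeded the untreated ones by 0.57 and missed the threshold (adjusted p = 0.0694, limma), on a scale where the median of all genes moved by -0.30.

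RefSeq (GRCm38.p6) lists 2 start sites of Cdkn1a, and 9 upstream windows of 250 bases for 6 of the 7 genes. Cdkn1c has no entry. The Cdkn1a windows are shown because it is the inhibitor that rose in both comparisons; capitals mark, on either strand, the paired p53 core letters (CATG and CATG with NNNNNN between them) or a GC box (GGGCGG), chr17:29090729-29090978 for the first and chr17:29093519-29093768 for the second, both on the plus strand, 5′ to 3′.
Cdkn1a first start: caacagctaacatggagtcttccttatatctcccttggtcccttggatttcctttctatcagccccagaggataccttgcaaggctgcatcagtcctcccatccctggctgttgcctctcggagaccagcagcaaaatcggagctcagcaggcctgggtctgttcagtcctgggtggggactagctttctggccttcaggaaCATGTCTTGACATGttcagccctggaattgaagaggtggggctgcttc
Cdkn1a second start: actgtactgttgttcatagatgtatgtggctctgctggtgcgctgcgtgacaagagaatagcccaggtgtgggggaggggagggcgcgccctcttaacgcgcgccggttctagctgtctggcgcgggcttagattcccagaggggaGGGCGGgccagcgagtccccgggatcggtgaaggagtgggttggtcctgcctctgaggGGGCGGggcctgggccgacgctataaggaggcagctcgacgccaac
The first window held 1 match to the p53 letters, from -48 to -35 of the start site, which 0.49% of all 32851 RefSeq windows of this length held. The second held 2 GC boxes, a motif found in 32.7% of all windows, and no p53 match. These are matches of letters and were not tested for binding. The motifs were chosen after the windows had been seen, so the shares over all windows do not measure chance. GENCODE M21 places a gene, AC167363.2, on the opposite strand over Cdkn1a exons, and Gm44732 likewise over Cdkn1c, so that reads from these and from the inhibitors cannot be told apart without strand. Whether the counting used strand is not given in the sources used here.

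Cdkn1b (ENSMUSG00000003031, chr6:134920401-134925513, plus strand) encodes p27. It had 97.1, 92.4, 121 and 105 CPM in WT replicates 9 to 12, 129, 115, 117 and 107 CPM in untreated Ncf1-/- replicates 1 to 4, and 119, 108, 101 and 111 CPM in treated replicates 5 to 8. The 3 groups overlapped throughout. The log2 fold change was 0.17 (95% interval -0.03 to 0.38, adjusted p = 0.137, edgeR) for Ncf1-/- against WT and -0.10 (-0.30 to 0.11, adjusted p = 0.479, edgeR) for treated against untreated cells. The first difference passed the threshold without WT replicate 11 (0.26, adjusted p = 0.0221, edgeR) and with library totals in place of TMM scaling (0.35, adjusted p = 0.00885, edgeR). The second passed it on the log2(TPM + 1) scale (-0.49, adjusted p = 0.0216, limma), though not on that scale alone. It lay between -0.51 and -0.05 over 21 alternatives.

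Cdkn1c (ENSMUSG00000037664, chr7:143458339-143461050, minus strand), an imprinted gene that encodes p57, fell most. WT replicates 9 to 12 had 75.6, 59.9, 35.8 and 109.6 CPM, Ncf1-/- replicates 1 to 4 had 8.58, 8.95, 13.2 and 7.09 CPM, and treated replicates 5 to 8 had 16.0, 14.6, 10.8 and 13.7 CPM. The lowest WT library was above the highest Ncf1-/- library of either kind. Cdkn1c was 7.42-fold higher in WT than in untreated Ncf1-/- cells, a log2 fold change of -2.89 (SE 0.30, adjusted p = 4.03e-06, edgeR) and -2.63 without WT replicate 12. WT replicate 11, the lowest of the WT libraries for Cdkn1c, was also the lowest for summed oligodendrocyte markers, at 3149 CPM, but replicate 12, the highest for Cdkn1c, had the next lowest sum at 6713 CPM, and replicates 9 and 10 had 10773 and 11201 CPM. The part of these markers in the fall of Cdkn1c was not tested. After Igfbp2 the log2 fold change was 0.54 (95% interval -0.10 to 1.18, adjusted p = 0.192, edgeR), and treated cells stayed 2.35 below WT on the log2 scale (log2 fold change -2.35, adjusted p = 1.73e-05, edgeR). With the WT libraries left out of the fit, the 0.49 for Igfbp2 passed the threshold (adjusted p = 0.0409, edgeR).

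Cdkn2a (ENSMUSG00000044303, chr4:89274471-89294653, minus strand) yields 2 unrelated proteins from separate first exons, p16Ink4a, which inhibits Cdk4 and Cdk6, and p19Arf, which restrains the p53 ligase Mdm2, and the gene-level counts hold both. It had 16.2, 13.6, 20.97 and 15.6 CPM in WT replicates 9 to 12, 30.0, 28.7, 33.2 and 27.3 CPM in Ncf1-/- replicates 1 to 4, and 35.1, 33.4, 33.3 and 28.8 CPM in treated replicates 5 to 8. All 8 Ncf1-/- libraries were above all WT libraries, and the treated and untreated ones overlapped. The log2 fold change was 0.84 (SE 0.12, adjusted p = 6.56e-05, edgeR) for Ncf1-/- against WT and 0.13 (95% interval -0.13 to 0.39, adjusted p = 0.445, edgeR) for treated against untreated cells. The sign of the latter turned with library totals in place of TMM scaling (-0.14) and on the log2(TPM + 1) scale (-0.36), without a call in either.

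Cdkn2b (ENSMUSG00000073802, chr4:89306299-89311039, minus strand), the neighbour of Cdkn2a, encodes p15, an inhibitor of Cdk4 and Cdk6 that TGF-beta signalling induces. WT replicates 9 to 12 had 11.5, 10.4, 9.92 and 15.0 CPM, Ncf1-/- replicates 1 to 4 had 8.67, 8.90, 11.9 and 8.17 CPM, and treated replicates 5 to 8 had 24.2, 17.4, 19.3 and 20.1 CPM. WT and untreated Ncf1-/- libraries overlapped, and every treated library was above both. The log2 fold change after Igfbp2 was 1.11 (SE 0.16, adjusted p = 0.000956, edgeR) and treated cells exceeded WT by 0.80 (SE 0.16, adjusted p = 0.000659, edgeR). Ncf1-/- against WT gave -0.31 (95% interval -0.65 to 0.03, adjusted p = 0.113, edgeR), and -0.46 without Ncf1-/- replicate 3 (adjusted p = 0.0232, edgeR). The rise after Igfbp2 was called under all 21 alternatives, between 0.55 and 1.20 on the log2 scale. The fibroblast and mural markers that were also higher in treated cells (23.4 to 26.8 against 10.8 to 14.0 CPM in sum) and the Y-linked genes moved with it and with the rise of Cdkn1a after Igfbp2, as 4 of the fibroblast and mural markers did with the rise of Cdkn1a between WT and Ncf1-/- cells, and their part was not tested.

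The windows before the second Cdkn2a start, which belongs to p16Ink4a, and before the Cdkn2b start are shown because these adjacent genes differed in which comparison moved them (chr4:89282193-89282442 and chr4:89311033-89311282, minus strand). Capitals mark a cyclic AMP response element (TGACGTCA).
Cdkn2a second start: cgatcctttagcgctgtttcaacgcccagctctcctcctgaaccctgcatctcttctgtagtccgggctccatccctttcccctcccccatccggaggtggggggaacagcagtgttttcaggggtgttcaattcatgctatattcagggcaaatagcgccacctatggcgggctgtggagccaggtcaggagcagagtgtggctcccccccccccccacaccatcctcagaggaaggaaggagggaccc
Cdkn2b start: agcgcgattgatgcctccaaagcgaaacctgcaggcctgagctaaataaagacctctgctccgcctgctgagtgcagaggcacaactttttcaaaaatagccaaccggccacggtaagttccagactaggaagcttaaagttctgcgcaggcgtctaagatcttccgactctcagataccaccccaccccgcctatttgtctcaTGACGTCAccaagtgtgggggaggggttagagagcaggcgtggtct
The Cdkn2b window held 1 such element, from -46 to -39, as did 1.55% of all windows. This element was also chosen after the windows had been seen. The Cdkn2a window before the p16Ink4a start held none of the 4 motifs searched, which were the p53 letters, the GC box, the cyclic AMP response element and a Foxo site (GTAAACA, in 3.17% of all windows). None of the 9 windows held a Foxo site.

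Cdkn2c (ENSMUSG00000028551, chr4:109660876-109667189, minus strand) encodes p18, which inhibits Cdk4 and Cdk6 in dividing progenitors. It had 32.8, 35.5, 33.6 and 33.3 CPM in WT replicates 9 to 12, 62.6, 69.9, 67.3 and 69.2 CPM in Ncf1-/- replicates 1 to 4, and 61.9, 64.7, 65.1 and 58.2 CPM in treated replicates 5 to 8. Replicates were close together, and WT did not overlap with either Ncf1-/- group. Ncf1-/- cells had 1.99-fold more Cdkn2c than WT cells (log2 fold change 0.99, SE 0.07, adjusted p = 1.58e-07, edgeR), the smallest standard error of the 7 genes in this comparison. Treated against untreated cells gave -0.11 (95% interval -0.25 to 0.04, adjusted p = 0.252, edgeR), which was called as -0.58 on the log2(TPM + 1) scale (adjusted p = 0.0149, limma) and as -0.38 with library totals (adjusted p = 0.00441, edgeR). On these scales the median of all genes stood at -0.30 and -0.23.

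Cdkn2d (ENSMUSG00000096472, chr9:21288410-21291407, minus strand) encodes p19Ink4d, which is distinct from p19Arf. It had 22.6, 21.2, 16.7 and 23.7 CPM in WT replicates 9 to 12, 30.5, 28.6, 28.6 and 29.1 CPM in Ncf1-/- replicates 1 to 4, and 39.3, 32.2, 32.5 and 29.4 CPM in treated replicates 5 to 8. The highest WT library lay under the lowest Ncf1-/- library, and the Ncf1-/- groups overlapped. The log2 fold change was 0.48 (SE 0.11, adjusted p = 0.00272, edgeR) for Ncf1-/- against WT, the smallest of the 5 calls, and 0.19 (95% interval -0.05 to 0.43, adjusted p = 0.224, edgeR) for treated against untreated cells, which turned to -0.29 on the log2(TPM + 1) scale.

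**Figure D2:**
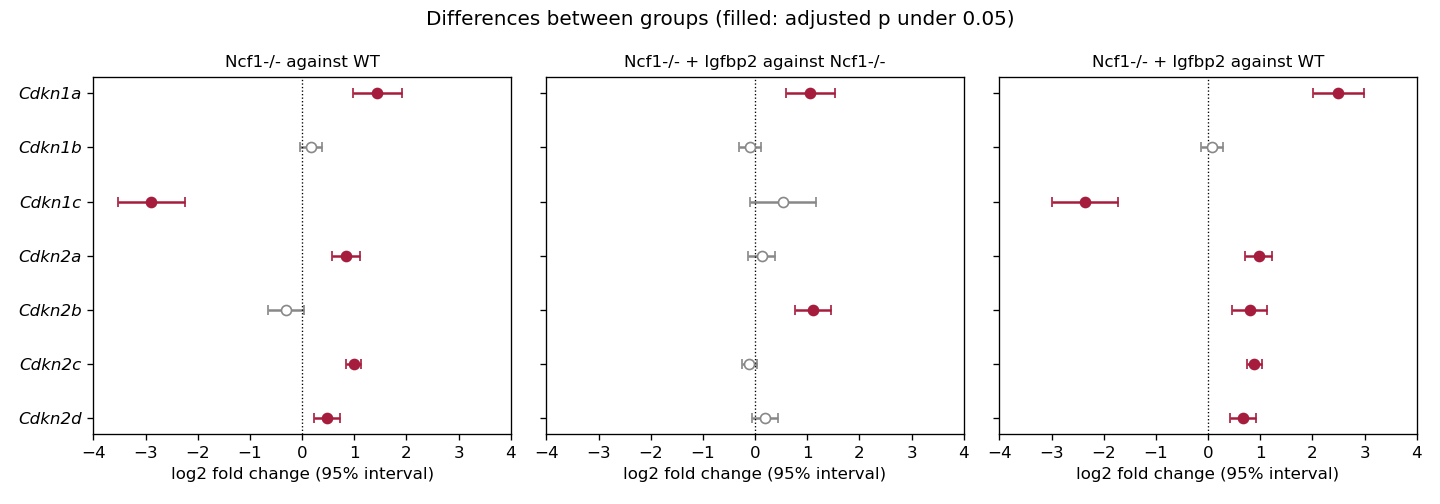
Log2 fold change (horizontal axis) with its 95% interval for each inhibitor (rows) in the 3 comparisons; filled points had an adjusted p under 0.05 in edgeR. Cdkn1c lies far to the left in both comparisons with WT, and Cdkn1a and Cdkn2b are the filled points in the comparison of treated with untreated Ncf1-/- cells.

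Treated Ncf1-/- cells against WT combined both steps. In this comparison 6 of the 7 genes were called, 5 higher and 1 lower, and the groups did not overlap for 6, where 62.4% of all genes were called (31.6% higher, 30.8% lower) and 54.3% did not overlap. The only gene not called was Cdkn1b, at 0.08 on the log2 scale (95% interval -0.13 to 0.28, adjusted p = 0.505, edgeR). On the log2(TPM + 1) scale 3 of the 7 genes were called, Cdkn1a, Cdkn1c and Cdkn2a, and the median of all genes stood at -0.25.

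Levels of different genes were compared per length, in TPM. The 7 inhibitors summed to a median of 127 TPM in WT (110 to 176), 186 TPM in Ncf1-/- (167 to 208) and 199 TPM in treated cells (154 to 225). In WT cells Cdkn1b (29.2 ± 6.79 TPM), Cdkn1c (29.0 ± 13.1 TPM) and Cdkn1a (24.7 ± 11.5 TPM) led and did not differ beyond their spread, followed by Cdkn2a (17.1 ± 5.01 TPM), Cdkn2c (14.3 ± 2.38 TPM), Cdkn2d (13.7 ± 1.66 TPM) and Cdkn2b (6.90 ± 1.57 TPM). In Ncf1-/- cells Cdkn1a led alone, Cdkn1b (33.0 ± 0.91 TPM) and Cdkn2a (31.7 ± 2.66 TPM) were within their spread of each other, and Cdkn1c was the lowest gene at 4.05 ± 1.0 TPM. After Igfbp2 the order was Cdkn1a, then Cdkn2a (24.9 ± 5.40 TPM) and Cdkn1b (23.3 ± 2.94 TPM), then Cdkn2c (16.5 ± 3.50 TPM) and Cdkn2d (16.3 ± 3.02 TPM), and last Cdkn2b (8.82 ± 1.17 TPM) and Cdkn1c (4.22 ± 0.61 TPM).

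A share within a library does not depend on how libraries are scaled against each other. Cdkn1a made up 17.6% ± 4.06 of the summed TPM of the 7 genes in WT, 36.0% ± 1.63 in Ncf1-/- and 51.7% ± 0.29 in treated cells (SD, n = 4), with no overlap between groups. The share of Cdkn1c went the other way, from 21.4% ± 6.70 in WT to 2.17% ± 0.50 and 2.19% ± 0.27. Cdkn1b took 21.9% ± 3.66, 17.8% ± 1.54 and 12.1% ± 0.56, and Cdkn2b took 5.13% ± 0.32, 3.08% ± 0.40 and 4.57% ± 0.43. Within the family, Cdkn1a thus held the largest share in both Ncf1-/- groups, while the share of Cdkn2b overlapped between WT and treated libraries and was lower in every untreated Ncf1-/- library.

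The ratio of summed Cip/Kip to summed INK4 TPM was 1.47, 1.43, 1.34 and 2.11 in WT replicates 9 to 12, 1.28, 1.23, 1.29 and 1.27 in Ncf1-/- replicates 1 to 4, and 1.95, 1.94, 1.82 and 2.04 in treated replicates 5 to 8. All Ncf1-/- libraries were under all WT libraries and under all treated ones. The log2 ratio differed by -0.30 between Ncf1-/- and WT and by 0.61 between treated and untreated cells (two-sided exact permutation test, p = 0.0286 each, the smallest p that 4 against 4 can give, and 0.0429 adjusted over the 3 comparisons). Treated cells and WT overlapped (0.31, exact permutation p = 0.143). Without WT replicate 12 the difference between Ncf1-/- and WT was -0.15 (exact permutation test, adjusted p = 0.0571), and without Cdkn2a in the sum it was -0.17 (exact permutation test, adjusted p = 0.229).

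**Figure D3:**
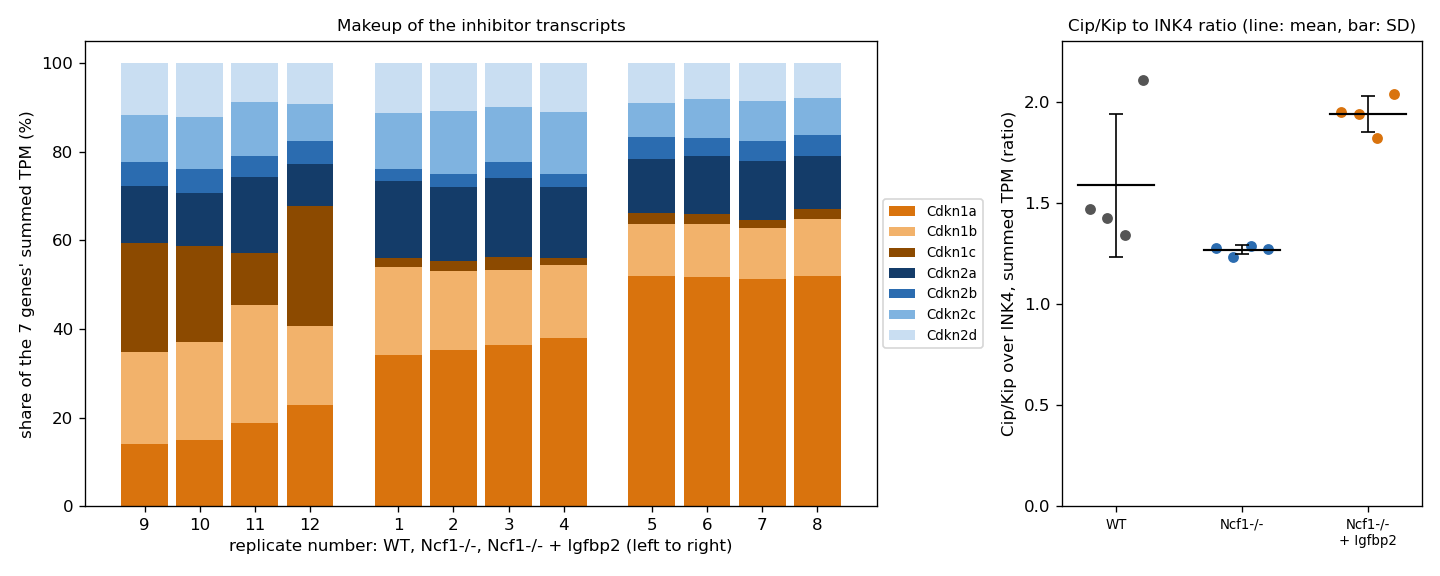
Left, share of each inhibitor in the summed TPM of the 7 genes (vertical axis, percent) for every library, with Cip/Kip genes in orange and brown and INK4 genes in blue; right, the ratio of summed Cip/Kip to summed INK4 TPM per library, with mean and SD (n = 4). The Cdkn1a block grows from WT to Ncf1-/- to treated libraries as the Cdkn1c block shrinks, and WT replicate 12 has the highest ratio, 2.11.

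The mean transcript length that the quantification reports for a gene, weighted by the abundance of its transcripts, moves when the mix of transcripts changes. It was examined for the 5 inhibitors with several transcripts after the values had been seen. For Cdkn2c it was 1900.5, 2055, 1737 and 1869 bases in WT replicates 9 to 12, 2201, 2204, 2182 and 2171 bases in Ncf1-/- replicates 1 to 4, and 2199, 2250.5, 2254 and 2204 bases in treated replicates 5 to 8. Every WT library was shorter than every Ncf1-/- library (two-sided exact permutation test, p = 0.0286 for either Ncf1-/- group against WT, 0.143 adjusted over 15 tests). Of 10642 genes with several transcripts, 9.73% did not overlap between Ncf1-/- and WT and 11.9% between treated cells and WT. In GENCODE M21 the gene has a transcript of 1106 bases (Cdkn2c-201) and a transcript of 2471 bases (Cdkn2c-202) that starts further upstream. With these lengths the shorter transcript is estimated at 42.5% ± 9.58 of Cdkn2c molecules in WT, 20.6% ± 1.14 in Ncf1-/- and 17.9% ± 2.17 in treated cells (SD, n = 4). The annotation release behind the deposited values is not given in the sources used here, and 86.3% of 29712 genes with a single transcript had the same length in M21. Among the inhibitors, Cdkn2b and Cdkn2d did not, with 1393 and 1271 bases deposited against 1390 and 1264 in M21. The mean length of Cdkn1c reached 1909 bases in treated replicate 6, above its longest M21 transcript of 1901. The transcript shares estimated here and for Cdkn1b are therefore approximate. On the log2(TPM + 1) scale, which divides by this length, Cdkn2c was 0.77 higher in Ncf1-/- than in WT cells (adjusted p = 0.00196, limma), beside 0.99 from counts.

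The window before the downstream start, that of the shorter Cdkn2c transcript, is shown because the estimated share of this transcript was higher in WT (42.5%) than in untreated Ncf1-/- cells (20.6%), a difference in mean length with an adjusted p of 0.143 in the exact permutation test (chr4:109665373-109665622, minus strand).
Cdkn2c downstream start: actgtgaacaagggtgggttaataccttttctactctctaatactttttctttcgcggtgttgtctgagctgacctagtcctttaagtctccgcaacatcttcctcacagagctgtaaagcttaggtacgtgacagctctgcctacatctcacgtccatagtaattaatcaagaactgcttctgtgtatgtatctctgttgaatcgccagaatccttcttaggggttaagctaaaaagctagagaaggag
It held none of the 4 motifs and hence no capitals, whereas the window before the upstream RefSeq start of Cdkn2c held 3 GC boxes.

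Cdkn1b had mean lengths of 2809 ± 41.0 bases in untreated and 2688 ± 21.8 bases in treated Ncf1-/- cells (SD, n = 4), again without overlap (exact permutation p = 0.0286, 0.143 adjusted over 15 tests), where 10.1% of genes with several transcripts did not overlap. The longer transcript in M21 has 4552 bases and the shorter 2393, which puts the longer one at 19.3% ± 1.901 of Cdkn1b molecules in untreated cells, 13.7% ± 1.01 in treated cells and 17.3% ± 2.40 in WT cells. The mean lengths of Cdkn1a, Cdkn1c and Cdkn2a overlapped between groups in every comparison.

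**Figure D4:**
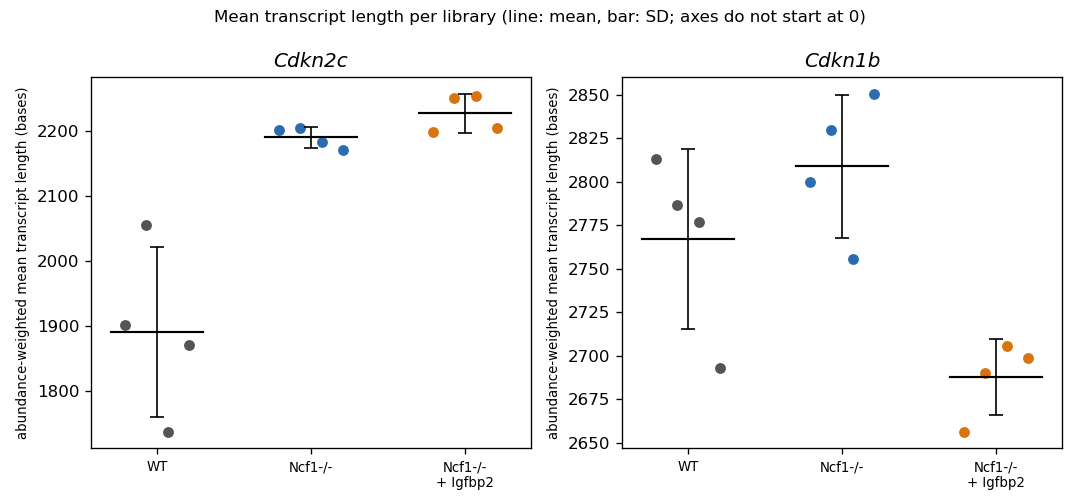
Abundance-weighted mean transcript length in bases (vertical axis, not from 0) of Cdkn2c and Cdkn1b in each library, with mean and SD (n = 4). The 4 WT libraries of Cdkn2c lie at or under 2055 bases and the 8 Ncf1-/- libraries at or above 2171 bases, and the treated libraries of Cdkn1b lie under the untreated ones.

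The kinases and cyclins that these proteins act on were mostly higher in Ncf1-/- cells. Of 10 tested genes of this list 9 rose and none fell between WT and Ncf1-/- cells (median log2 fold change 1.43, beside 0.02 over all genes), where 28.9% of all genes rose and 28.2% fell, shares against which the counts of the other lists in this comparison are also to be read. Ccnd1, the cyclin that INK4 proteins compete with, went from 67.0 ± 11.4 to 533 ± 123 CPM (log2 fold change 2.99, SE 0.21, adjusted p = 2.07e-07, edgeR). Cdk1, the mitotic kinase, rose by 2.42, Cdk6 by 1.51, Cdk2 by 1.28, Ccnd2 by 0.995 and Cdk4 by 0.41 on the log2 scale. After Igfbp2 the 3 genes called were the D-type cyclins Ccnd2 (0.85, adjusted p = 0.00309, edgeR), Ccnd3 (0.43, adjusted p = 0.00945, edgeR) and Ccnd1 (0.71, adjusted p = 0.0207, edgeR), while the list had a median of -0.12. Ccnd3 had -0.05 on the log2(TPM + 1) scale, where none of the 10 was called higher and 4 were called lower, and with library totals 1 was higher and 3 lower. After Igfbp2 14.2% of all genes rose and 10.7% fell as reported, and lower calls were far more common on both of these scales.

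Genes of the retinoblastoma (RB) and E2F family, which the kinases act on, rose in 9 and fell in 2 of 13 cases in Ncf1-/- cells (median 0.58). Rbl1, the p107 pocket protein, rose by 1.84 and E2f1, an activator of S-phase genes, by 1.70, whereas Rb1, the retinoblastoma protein (-0.56, adjusted p = 0.00463, edgeR), and Rbl2 (-0.22, adjusted p = 0.00769, edgeR) fell, the latter without a call on library totals (-0.04) or log2(TPM + 1) (-0.07). Rb1 overlapped between the groups. After Igfbp2 none of the 13 was called with edgeR under TMM scaling or with DESeq2 (2 had an unadjusted p under 0.05 in edgeR), while 4 were called lower with library totals and 5 on the log2(TPM + 1) scale. Proliferation genes rose in 12 of 12 cases between WT and Ncf1-/- cells, with a median of 1.92 on the log2 scale, and did so under library totals, DESeq2 and both log2(TPM + 1) scales as well. Birc5, the survivin of dividing cells, rose by 2.27, and Pcna, the sliding clamp of DNA replication, by 1.46. After Igfbp2 of these 12 only Tyms, which makes thymidylate for DNA synthesis, was called, lower by 0.66 (log2 fold change -0.66, adjusted p = 0.00195, edgeR), and the list had a median of -0.18. With library totals 4 of the 12 were lower (median -0.45) and on the log2(TPM + 1) scale 8 (median -0.66), beside -0.23 and -0.30 over all genes.

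Genes that act on the turnover of p21, p27 and p57 proteins rose in 4 and fell in 1 of 12 cases in Ncf1-/- cells (median 0.10). Of all genes 57.2% were called in this comparison. With library totals 7 of the 12 rose and 1 fell, and with DESeq2 4 rose and 2 fell. Skp2, which targets p27 for degradation, rose by 0.79 (adjusted p = 5.8e-05, edgeR) with its cofactor Cks1b (1.54), and Dtl, which targets p21 in S phase, rose by 1.98. Rnf123, a subunit of a ligase for p27 in G1, fell by 0.76 on the log2 scale. After Igfbp2 none of the 12 was called with edgeR under TMM scaling or with DESeq2 (1 had an unadjusted p under 0.05 in edgeR), while 6 were called lower with library totals and 10 on the log2(TPM + 1) scale.

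Of p53 and the genes that it induces, Cdkn1a aside, 14 of 21 rose and 2 fell in Ncf1-/- cells (median 0.42). Eda2r, a death receptor family member, rose from 27.6 ± 2.61 to 69.8 ± 4.74 CPM (log2 fold change 1.34, SE 0.10, adjusted p = 2.51e-07, edgeR) and Pmaip1, the cell death gene Noxa, by 1.83. Trp53 itself rose by 0.42 (adjusted p = 0.000499, edgeR), Mdm2, its ligase, had 0.13 (adjusted p = 0.221, edgeR), and Gadd45a (-0.62) and Zmat3 (-0.35) fell, both with overlap between groups. After Igfbp2 9 of the 21 rose and 1 fell (median 0.29, beside 0.04 over all genes). Phlda3, which restrains Akt signalling (0.66, adjusted p = 0.00228, edgeR), and Tnfrsf10b, a death receptor (0.88, adjusted p = 0.00322, edgeR), had the lowest adjusted p among those that rose, and Mdm4, a p53 inhibitor, fell (-0.40, adjusted p = 0.00673, edgeR). Trp53 (0.12) and Mdm2 (0.04) were not called. The rise depended on the scale: with library totals 3 rose and 5 fell (median 0.02), and on the log2(TPM + 1) scale none rose and 6 fell (median -0.17), beside medians of -0.23 and -0.30 over all genes.

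The list of factors known to act at the Cip/Kip and Cdkn2b promoters also held the Id proteins, which inhibit E-proteins. Of its 17 genes 9 were lower and 3 higher in Ncf1-/- cells (median -0.31), where 28.2% of all genes were lower and 28.9% higher. Id2 (-2.26) and Id1 (-1.76), inhibitors of E-proteins, had the lowest adjusted p among those that fell, and Klf6 (1.37) and Klf4 (2.23), zinc finger factors that can induce Cdkn1a, among those that rose. After Igfbp2 3 of the 17 rose and none fell with TMM scaling, while 4 were lower with library totals and 3 on the log2(TPM + 1) scale. Those that rose were Smad3, which carries TGF-beta signals (47.4 ± 8.82 to 101 ± 12.5 CPM, log2 fold change 1.09, SE 0.20, adjusted p = 0.00295, edgeR), Foxo3 (0.85, adjusted p = 0.0021, edgeR) and Foxo1 (0.73, adjusted p = 0.00473, edgeR), the last named after its value was seen. Their log2 differences stayed above 0 on the log2(TPM + 1) scale, at 0.60, 0.34 and 0.13, without a call. Foxo3 (-0.88) and Foxo1 (-1.07) had fallen between WT and Ncf1-/- cells.

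Polycomb proteins and other regulators of the Cdkn2a and Cdkn2b locus rose in 5 and fell in 3 of 16 cases in Ncf1-/- cells (median 0.18). Of all genes 57.2% were called in this comparison. With library totals 8 of the 16 rose and 2 fell, and with DESeq2 5 rose and 4 fell. Hmga2, which lowers Cdkn2a in young stem cells, rose by 2.88 and Ezh2, the Polycomb methyltransferase, by 0.81, while Kdm6b, a demethylase that removes the Polycomb mark, went from 240.2 ± 41.4 to 77.2 ± 2.98 CPM (log2 fold change -1.64, SE 0.13, adjusted p = 6.83e-07, edgeR). Bmi1 had -0.03 (adjusted p = 0.836, edgeR). After Igfbp2 Kdm6b rose by 0.78 (adjusted p = 0.00212, edgeR) and Ets2, an activator of Cdkn2a, by 0.89 (adjusted p = 0.0162, edgeR), and the Polycomb genes Cbx7 (-0.98), Cbx2 (-0.50) and Ezh2 (-0.35, adjusted p = 0.0248, edgeR) fell. Bmi1 had -0.23 (adjusted p = 0.134, edgeR) and was called lower with library totals (-0.51, adjusted p = 0.00594, edgeR) and on log2(TPM + 1) (-0.64, adjusted p = 0.0143, limma). On each of these scales 10 of the 16 genes were called lower, Kdm6b (0.19) and Ets2 (0.38) were not called on the latter, and Cbx7 was not called on TPM rescaled without the 100 most abundant genes (-0.52, adjusted p = 0.093, limma).

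Of the imprinted genes around Cdkn1c, 6 had enough counts to be tested. In Ncf1-/- cells 1 rose and 2 fell, where 57.2% of all genes were called. With DESeq2, and also without WT replicate 12, 1 rose and 3 fell. With library totals 2 rose and none fell, with Kcnq1ot1 at -0.38 (adjusted p = 0.116, edgeR) and Tssc4 at -0.11 (adjusted p = 0.429, edgeR). As reported, Kcnq1ot1, the antisense RNA that silences Cdkn1c on the paternal chromosome, had -0.57 (adjusted p = 0.0275, edgeR) in Ncf1-/- against WT and -0.61 (adjusted p = 0.043, edgeR) after Igfbp2. Tssc4 fell in both comparisons (-0.28 and -0.37), and Cars, a transfer RNA synthetase, rose in Ncf1-/- cells (0.57).

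**Figure D5:**
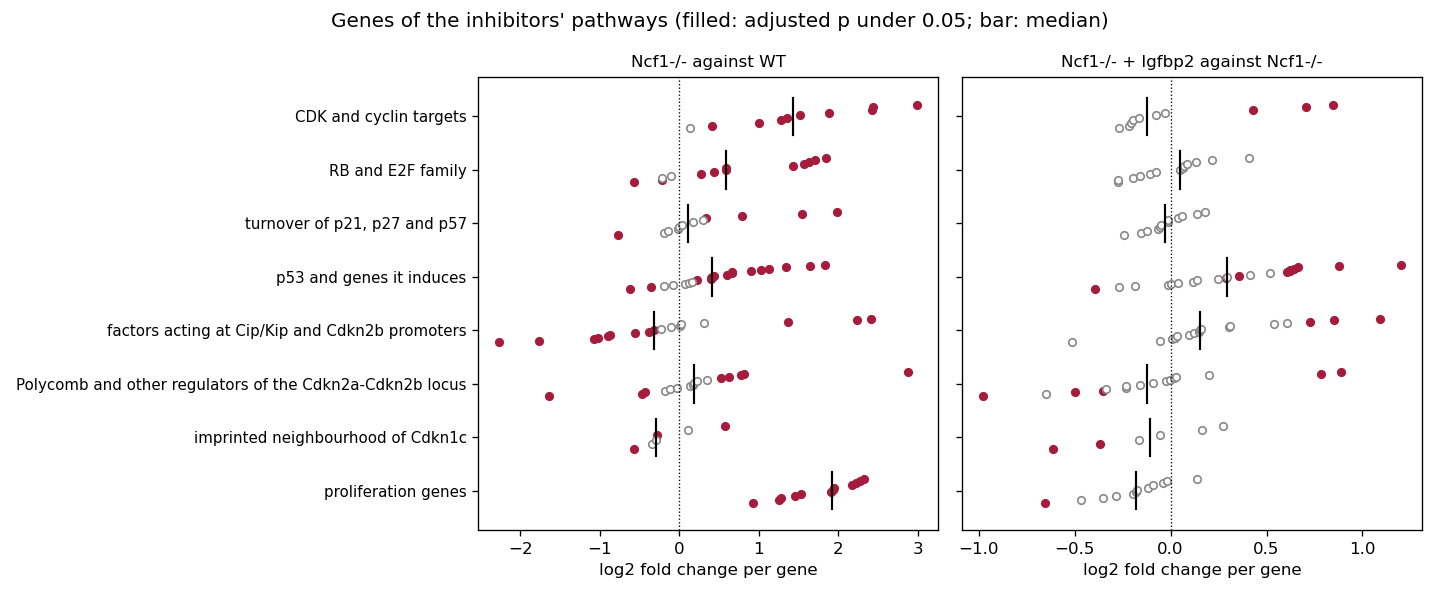
Log2 fold change (horizontal axis, different range in each panel) of every tested gene in 8 lists of genes around the inhibitors; filled points had an adjusted p under 0.05 in edgeR and bars mark list medians. The kinase and cyclin and the proliferation lists lie to the right of 0 for Ncf1-/- against WT (medians 1.43 and 1.92) and near 0 after Igfbp2 (-0.12 and -0.18), where the p53 list has a median of 0.29.

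The protein-coding genes next to each inhibitor were read to see whether a locus moved as a block. Srsf3, a splicing factor next to Cdkn1a, had log2 fold changes of 0.85 (Ncf1-/- against WT, adjusted p = 7.08e-05, edgeR) and -0.52 after Igfbp2 (adjusted p = 0.0112, edgeR), the opposite sign to Cdkn1a in the latter. Next to Cdkn1b, Gpr19 (0.35) and Apold1 (1.88) rose in Ncf1-/- cells where Cdkn1b was not called. Mtap, a methionine salvage enzyme on the other side of Cdkn2a from Cdkn2b, fell in Ncf1-/- cells (-0.43, adjusted p = 0.0449, edgeR) and Dmrta1, beyond Cdkn2b, fell by 2.17 on the log2 scale (adjusted p = 3.6e-05, edgeR), while Cdkn2a rose. Neither was called after Igfbp2 (0.02 and 0.76). Faf1 next to Cdkn2c rose by 0.30 and Kri1 next to Cdkn2d had -0.08. Rab44, Kcnq1, Slc22a18, 4930522H14Rik and Ap1m2 had too few counts to be tested.

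Over the 12 libraries, the 11172 genes averaging 5 CPM or more were ranked by the root mean square difference of their centred log2 CPM from each inhibitor. The nearest to Cdkn1a were Tmco4 (0.19), Kdelr3 (0.22) and Plvap (0.22), against a spread of Cdkn1a itself of 1.10 on the same scale. Those near Cdkn1c (spread 1.28) included Fbxo2 (0.25) and Psd2 (0.27), and the nearest to Cdkn2b (spread 0.51) were Slc12a4 (0.19), Sema7a (0.20) and Colgalt2 (0.21). Closer matches in absolute terms belonged to genes that varied less, with Coro1b (0.04), Maged2 (0.05) and Rcbtb2 (0.06) for Cdkn1b, Trap1 (0.10), Mrps27 (0.10) and Ralb (0.11) for Cdkn2a, Fam102b (0.08), Nedd1 (0.09) and Suv39h1 (0.09) for Cdkn2c, and Sdhaf1, Gfer and Dhodh (0.09 each) for Cdkn2d. Nearness here reflects the 3 group means and the libraries that all genes share.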

How the data were processed

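RNA-seq of 12 libraries (3 groups of 4) was analysed. The authors mapped reads from ribosome-depleted RNA to GRCm38 with Bowtie2 and quantified genes with RSEM; versions and annotation release are not given in the sources used here. The deposited expected counts per gene (18201622 to 34086554 per library) were rounded and tested with edgeR 4.0.16 in R 4.3.3 (TMM scaling, filterByExpr over the 3 groups, quasi-likelihood test, one model over all libraries, Benjamini-Hochberg over 15706 genes, threshold 0.05), after the script had been tested on simulated data. The TPM values deposited by the authors served for shares, ratios and limma 3.58.1 on log2(TPM + 1). The mean lengths in the same deposited files gave the transcript mix. The score columns of the authors' merged table equalled TPM times the number of transcripts for 100% of 257083 values, and only its gene names were used; FPKM was not used. The methods of the study describe treated and untreated Ncf1-/- cultures as paired by pup. Summed Y-linked levels were 105 to 116 CPM in every untreated and 7.79 to 9.18 CPM in every treated library. The stated pairs could therefore not be matched to the libraries as labelled. Deviations of same-pair libraries from their group means correlated at -0.06 to 0.02 (4 pairs in order of replicate number), and the fit has no pair term. Closest replicates (Ncf1-/- 2 and 3) still differed beyond counting noise (chi-square per degree of freedom 4.70). The members and gene lists were chosen with earlier results of these data known. Named genes are the 7 inhibitors, their neighbours, up to 2 called genes per list, direction and comparison with the lowest adjusted p, 12 fixed regulators and the 3 nearest profiles; 2 of these genes are not reported here. Alternatives were DESeq2 1.42.0, library totals, other filters, TPM scales, fewer groups, each library left out and a replicate block. Motifs were chosen after the windows were seen. p-values measure the spread between these cultures, and depth covers counting error only.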

Additional observations from a re-analysis of the deposited data

Results flagged for a closer look

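Of 60 groups of 4 libraries examined among the inhibitors, 3 had a single library far from the other 3, where chance gives about 5%. Cdkn2d TPM in untreated Ncf1-/- cells was 22.7 in replicate 4, with the others at 18.8 to 19.2. The mean transcript length of Cdkn1a in WT cells was 1586 bases in replicate 9, and the other WT libraries were longer. The ratio of summed Cip/Kip to INK4 TPM in WT cells was 2.11 in replicate 12, with the others at 1.34 to 1.47; this is the library with low Y-linked levels.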

How the results depend on the processing

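The calls of Cdkn1a, Cdkn1c, Cdkn2a, Cdkn2c and Cdkn2d between Ncf1-/- and WT cells held under all 20 alternatives. The number of inhibitors called there was 5 or 6 under every alternative. For treated against untreated cells it was 2 in the fit reported, 4 with library totals and 2 whichever library was left out. The genes called there changed with the scale, and Cdkn2c was called lower with library totals. On log2(TPM + 1) Cdkn1b and Cdkn2c were called lower and Cdkn1a was not called. For treated cells against WT the number was 6 in the fit reported and 3 on either TPM scale, log2(TPM + 1) or log2(TPM + 0.1). Signs of differences that had not been called turned for Cdkn2a after Igfbp2 (-0.14 with library totals, -0.36 and -0.37 on the 2 TPM scales, -0.0033 on TPM rescaled without the 100 most abundant genes), for Cdkn2d after Igfbp2 (-0.082, -0.29 and -0.30 on the first 3 of these), and for Cdkn1b in treated cells against WT (-0.022, -0.29, -0.30 and -0.086 on the 4, and between -0.037 without WT replicate 10 and 0.16 without WT replicate 11 with a library left out). The cause was not tested. The Cip/Kip to INK4 difference lost its call without Cdkn2a (-0.17 for Ncf1-/- against WT, 0.58 for treated against untreated cells) and with any library of the groups compared left out, where 3 against 4 cannot give a p under 0.0571; it ranged from -0.37 to -0.15 for Ncf1-/- against WT and from 0.59 to 0.64 for treated against untreated cells. The replicate block on the 8 Ncf1-/- libraries called 2 inhibitors, as the fit reported did, but the same 8 libraries without the block called 3: Cdkn1c had 0.49 (adjusted p = 0.0409, edgeR) without and 0.51 (adjusted p = 0.0664, edgeR) with the block, which changed no other call. All-gene calls for treated against untreated cells numbered 3923, against 5906 with library totals, 6354 and 6519 on the TPM scales, and 2320, 2294 and 2550 without untreated replicate 1 or 2 or treated replicate 6. Between Ncf1-/- and WT cells 4545 genes were higher and 4433 lower, against 6024 and 3159 with library totals; for treated cells against WT, 4964 and 4837, against 1969 and 6890 on log2(TPM + 1). The rescaled TPM fit, the length tests and the scaling of the gene lists were added after the data were seen. Depth limits Cdkn2b and Cdkn1c most, with as few as 184 and 185 counts in a library.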
